A study of Mus musculus with 6 samples.

Results

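The genes described here are 45 regulators of the G1/S transition and components of the DNA replication machinery, chosen by name from textbook roles, out of 35275 genes in the table. Each symbol matched 1 Ensembl identifier. Messenger RNA was sequenced from fluorescent suprabasal cells of mouse back-skin epidermis at E16.5, in 3 K10-spastin libraries and 3 control libraries of the CD1 IGS strain. The K10-spastin embryos are labelled K10rtTA;TREspastin, and the dams are described as K10-rtTA;TRE-H2B-GFP;TRE-Spastin. The promoter of keratin 10, a gene switched on above the basal layer, drives rtTA, which with doxycycline turns on a nuclear green fluorescent protein and of spastin, an enzyme that severs microtubules. The dams of both groups are described as fed doxycycline from E14.5, and cells were sorted for the fluorescent protein in both groups. The sources used here do not give the control embryos' transgenes or the number of embryos in a library. The p-values below therefore measure the spread between these libraries, which may be partly technical.

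Replication begins in G1, when the origin recognition complex, CDC6 and CDT1 load the ring-shaped MCM2-7 helicase onto DNA. Cyclin D with CDK4 or CDK6, and cyclin E with CDK2, then inactivate the retinoblastoma proteins, which frees E2F factors to switch on genes needed in S phase. CDC45 and the GINS complex turn the loaded rings into running helicases, and polymerases, the sliding clamp PCNA and nucleotide-making enzymes complete the work. In stratified epidermis cells divide mainly in the basal layer, although suprabasal cells of the embryo can also divide. The libraries are bulk samples, so fewer cycling cells and less RNA per cycling cell cannot be told apart.

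The values are FPKM, fragments per kilobase of gene, scaled to library size, so levels of different genes can be compared per length. Read from the step size of low values, depth was 16.02 to 22.5 M fragments (M for mega) per library. Genes averaging at least 1 FPKM were tested, 11071 in all, with limma on log2(FPKM + 1), and changes are K10-spastin minus control on that scale, given with their SE. That scale understates the change of low genes. A gene was called at a Benjamini-Hochberg adjusted p under 0.05. Spast, the induced gene, stood at 1431, 639 and 213 FPKM in K10-spastin 1 to 3, against 21.2, 24.0 and 21.4 FPKM in controls 1 to 3. The K10-spastin libraries thus all exceeded the controls in the induced gene but differed among themselves. The 9 suprabasal markers, which check the sorted cells, summed to 49630, 34530 and 56860 FPKM in K10-spastin 1 to 3, against 69290, 57050 and 60360 FPKM in controls 1 to 3. Krt1 and Krt10 held most of each sum, with 17010 and 16980 FPKM in K10-spastin 1 and 28590 and 32510 FPKM in control 1. Of the suprabasal markers, Ivl rose, with a change of 2.54 ± 0.55 (adjusted p = 0.0321), and Krt10 fell, with a change of -0.81 ± 0.20 (adjusted p = 0.0438). The rest were not called. Krt1 and Dsg1a had negative changes, of -0.69 and -0.34, and Krtdap, Sbsn, Dsc1, Lor and Calml3 had positive ones, between 0.21 and 0.75. Of the markers of other cells, 5 endothelial genes summed to at most 0.361 FPKM in any library, and 8 immune genes, of which Cd207 and Cd3e were listed at 0 in all 6 libraries, summed to 0.823, 3.32 and 0.453 FPKM in K10-spastin 1 to 3, against 0.547, 1.74 and 1.45 FPKM in controls 1 to 3.

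None of the 42 tested members was called in either direction by limma, whereas 11.0% of all tested genes were called (5.14% higher and 5.9% lower). None had an unadjusted p under 0.05 either, against 31.5% of all tested genes. Of the 42, 18 had a positive and 24 a negative change. Their median change was -0.03, beside -0.09 for all tested genes. The changes ran from -0.76 for Ccnd2 to 0.64 for Mcm3, and the smallest adjusted p was 0.196, for Ccnd3. The median 95% confidence interval reached 0.75 to either side of the change. The interval lay inside a change of 1 on the log2(FPKM + 1) scale in both directions for 24 members. For low genes such an interval can still hold a change of more than 2-fold in FPKM. For the other 18 these libraries do not exclude a change of 2-fold. The 3 K10-spastin libraries lay entirely below the 3 controls in 2 members, Ccnd3 and Rfc1, and entirely above in none. Such separation in either direction was found in 40.4% of all tested genes (15.6% above and 24.8% below).

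**Figure D1:**
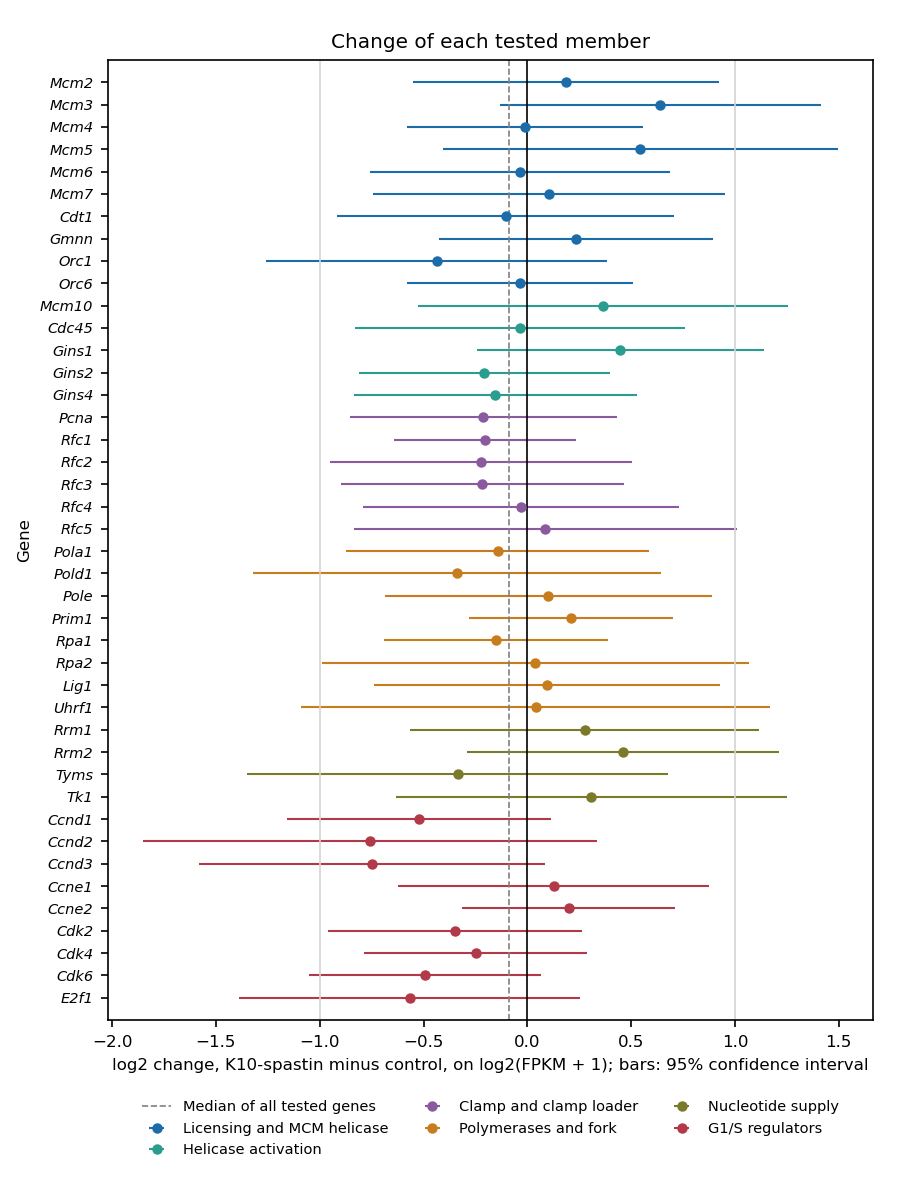
log2 change of each of the 42 tested members (K10-spastin minus control, on log2(FPKM + 1)), with bars for the 95% confidence interval and colours for roles. The dashed line marks the median of all tested genes at -0.09, and the interval of every member includes 0. The pale lines mark a change of 1 on this scale in each direction, which for low genes is more than 2-fold in FPKM.

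The members differed among the K10-spastin libraries instead. K10-spastin 1 was the lowest of the 6 libraries in 37 of 42 members, against 50.5% of all tested genes. K10-spastin 2 was the highest in 33 of 42, against 24.5% of all tested genes. The order 1, 3, 2 from low to high was found in 40 of 42 members, the exceptions being Pcna and Cdk6, and in 39.7% of all tested genes. Relative to the mean of the controls, the members' median was -0.71 in K10-spastin 1, 0.44 in K10-spastin 2 and 0.11 in K10-spastin 3 on the log2 scale, while single controls lay between -0.04 and 0.11. All tested genes had medians of -0.30, 0.04 and -0.02 in K10-spastin 1 to 3. After median-of-ratios scaling, which sets the libraries' typical gene to the same level, the members' medians were -0.44, 0.40 and 0.13 in K10-spastin 1 to 3, and K10-spastin 1 was still lowest in 33 of 42 members, against 29.1% of all genes. Each of these positions is that of 1 library, so no test was made.

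**Figure D2:**
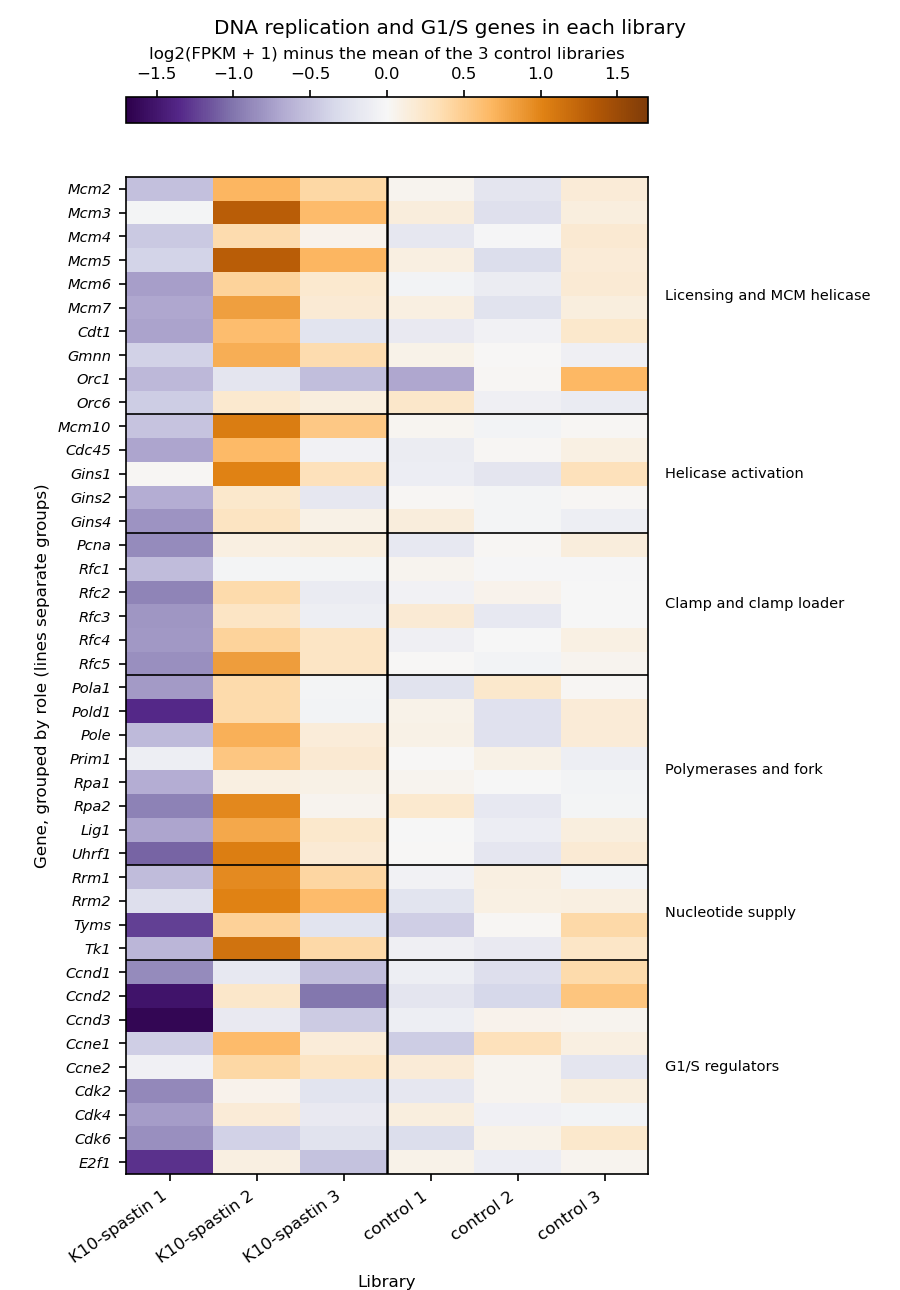
log2(FPKM + 1) of each tested member minus the mean of the 3 controls, with genes in rows by role and libraries in columns, purple for lower and orange for higher. K10-spastin 1 is the lowest library in 37 of 42 rows and K10-spastin 2 the highest in 33, while most control columns stay near 0.

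The SD of log2(FPKM + 1) was larger among K10-spastin than among control libraries in 41 of 42 members, and in 73.8% of all tested genes. Its median over the members was 0.64 in K10-spastin and 0.18 in control, beside 0.29 and 0.16 over all tested genes. The exception was Orc1, which varied more among the controls. K10-spastin 2 exceeded K10-spastin 1 in every tested member, by 1.48-fold for Rfc1 to 6.81-fold for E2f1 in FPKM, with a median of 2.65-fold, and by at least 2-fold in 32 of 42. Among controls the highest library exceeded the lowest by a median of 1.31-fold, and by at least 2-fold in 2 members, Orc1 and Ccnd2.

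**Figure D3:**
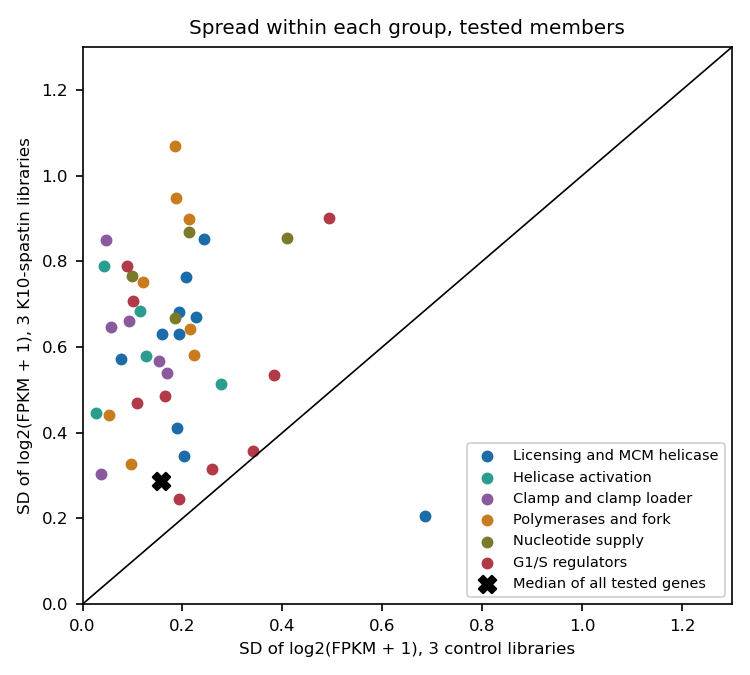
SD of log2(FPKM + 1) over the 3 K10-spastin libraries (vertical axis) against that over the 3 control libraries (horizontal axis), 1 point per tested member, coloured by role, with the line of equal spread. Of the 42 points 41 lie above the line, and the cross marks the median of all tested genes at 0.29 in K10-spastin and 0.16 in control.

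Licensing genes had 10 tested members of 11, none of them called, with 5 changes positive and 5 negative. The 6 MCM subunits form the helicase ring in equal numbers. Mcm7, the most abundant of the licensing genes, stood at 11.9, 35.98 and 22.7 FPKM in K10-spastin 1 to 3, against 21.6, 16.7 and 21.7 FPKM in controls 1 to 3. Mcm6 stood at 8.81, 21.4 and 17.9 FPKM in K10-spastin 1 to 3, against 14.9, 14.1 and 17.6 FPKM in controls 1 to 3. Mcm2 stood at 7.36, 18.2 and 14.9 FPKM in K10-spastin 1 to 3, against 11.4, 9.40 and 12.5 FPKM in controls 1 to 3. In these subunits the control values lay inside the range of the K10-spastin libraries, with K10-spastin 1 below and K10-spastin 2 above every control. Mcm3 stood at 11.6, 30.9 and 19.1 FPKM in K10-spastin 1 to 3, against 13.2, 9.75 and 13.0 FPKM in controls 1 to 3, with a change of 0.64 ± 0.33 (adjusted p = 0.228). Mcm5 stood at 5.69, 20.6 and 13.0 FPKM in K10-spastin 1 to 3, against 8.41, 6.13 and 8.69 FPKM in controls 1 to 3, with a change of 0.54 ± 0.41 (adjusted p = 0.396). In both, K10-spastin 2 and 3 exceeded every control and K10-spastin 1 did not. Mcm4 stood at 6.50, 12.2 and 9.71 FPKM in K10-spastin 1 to 3, against 8.07, 9.17 and 10.8 FPKM in controls 1 to 3, with a change of -0.01 ± 0.24.

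Shares of the summed MCM2-7 messages were compared next. Mcm3 made up 21.4% ± 1.52 of the summed FPKM of the 6 subunits in K10-spastin and 15.8% ± 1.10 in control (SD, n = 3 each). Mcm5 made up 13.0% ± 1.91 in K10-spastin and 10.2% ± 0.726 in control, and Mcm6 16.9% ± 1.52 in K10-spastin and 20.6% ± 1.21 in control (SD, n = 3 each). The groups did not overlap for these 3 shares, and overlapped for Mcm2, Mcm4 and Mcm7 (exact two-sided permutation p = 0.6, 0.2 and 0.3). Mcm3, Mcm5 and Mcm6 each gave an exact two-sided permutation p of 0.1, the smallest that 3 against 3 can give, and 0.467 after Benjamini-Hochberg adjustment over 14 shares. The MCM shares were added after the values had been seen.

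Of the other licensing genes, Gmnn, whose protein geminin blocks CDT1 after origins have fired, stood at 9.92, 22.8 and 17.4 FPKM in K10-spastin 1 to 3, against 14.1, 13.4 and 12.5 FPKM in controls 1 to 3. Cdt1 itself stood at 1.55, 5.51 and 2.61 FPKM in K10-spastin 1 to 3, against 2.78, 3.02 and 3.89 FPKM in controls 1 to 3, and its change was -0.10 ± 0.35. Orc1, the largest subunit of the origin recognition complex, stood at 1.16, 1.80 and 1.22 FPKM in K10-spastin 1 to 3, against 0.982, 2.26 and 4.12 FPKM in controls 1 to 3. Control 3 was the highest library in Orc1, and control 1 was the lowest. Control 3 was also the highest of the 6 libraries in Pcna, Ccnd1, Ccnd2, Cdk2 and Cdk6, so in 6 members in all, against 13.0% of all tested genes. Orc6 had a change of -0.03 ± 0.23. Cdc6 averaged 0.703 ± 0.454 FPKM in K10-spastin and 0.585 ± 0.0893 FPKM in control (SD, n = 3 each), below the level tested.

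Promoter windows from RefSeq (build GRCm38.p6, from 250 bases before to 50 bases after a start site) were at hand for 35 of the 45 members, in 41 windows. They are shown because many of the members are textbook targets of E2F. The 8 letters of an E2F site were searched on both strands in 4 forms, TTTCCCGC, TTTGGCGC, TTTCGCGC and TTTGCCGC. They occurred in 14 of the 41 windows, 34.1%, and in 2.26% of all 32851 windows. Matches on opposite strands can overlap, as in Mcm5 below, where capitals span 2 of them. The letters are a description of these windows and do not show binding. The members were chosen by name for their roles, so their share of windows does not bear on their order over the libraries.

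The E2F letters with their flanks in a few of these promoters are as follows, 5′ to 3′ on the gene's strand, with the match in capitals.
Mcm3 (chr1:20820263-20820285, minus strand): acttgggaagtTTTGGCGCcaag
Mcm3 (chr1:20820275-20820304, minus strand): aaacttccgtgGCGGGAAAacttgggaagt
Mcm6 (chr1:128359734-128359763, minus strand): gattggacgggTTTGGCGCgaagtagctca
Mcm6 (chr1:128359793-128359822, minus strand): gtatgcttttgGCGCGAAAagtgcgtgcgg
Mcm6 (chr1:128359797-128359826, minus strand): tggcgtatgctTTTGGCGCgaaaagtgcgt
Rfc3 (chr5:151651190-151651219, minus strand): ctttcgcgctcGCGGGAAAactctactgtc
Rfc3 (chr5:151651200-151651229, minus strand): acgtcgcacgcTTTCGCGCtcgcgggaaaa
Lig1 (chr7:13278841-13278870, plus strand): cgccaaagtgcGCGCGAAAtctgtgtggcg
Pold1 (chr7:44548766-44548787, minus strand): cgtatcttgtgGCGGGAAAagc
Orc1 (chr4:108579416-108579445, plus strand): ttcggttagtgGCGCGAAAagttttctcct
Cdt1 (chr8:122568036-122568064, plus strand): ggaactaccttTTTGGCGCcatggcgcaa
The whole windows of Mcm5, a licensing gene, and Uhrf1, the member with the largest spread among the K10-spastin libraries, are given with the same marking.
Mcm5 (chr8:75109259-75109558, plus strand): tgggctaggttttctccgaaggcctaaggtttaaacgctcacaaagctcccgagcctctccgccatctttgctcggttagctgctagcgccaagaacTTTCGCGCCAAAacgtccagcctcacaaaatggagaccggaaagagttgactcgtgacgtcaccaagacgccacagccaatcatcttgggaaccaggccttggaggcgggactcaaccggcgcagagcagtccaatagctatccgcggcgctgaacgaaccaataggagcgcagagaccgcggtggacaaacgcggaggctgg
Uhrf1 (chr17:56304063-56304362, plus strand): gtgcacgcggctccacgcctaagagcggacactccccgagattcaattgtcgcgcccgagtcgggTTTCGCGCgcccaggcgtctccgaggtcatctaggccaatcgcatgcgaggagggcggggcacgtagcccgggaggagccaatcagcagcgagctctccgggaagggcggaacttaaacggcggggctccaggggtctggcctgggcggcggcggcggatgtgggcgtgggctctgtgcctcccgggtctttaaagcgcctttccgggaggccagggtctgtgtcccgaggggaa

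Among tested members with a window, the 12 with E2F letters had a median ratio of K10-spastin 2 to K10-spastin 1 of 2.88, with a range of 1.55 to 4.81. The 20 without them had a median ratio of 2.63, with a range of 1.48 to 6.81. The ranges thus overlapped. Since every tested member was higher in K10-spastin 2 than in K10-spastin 1, this split cannot show whether the letters go with that direction. The CCAAT box, CCAAT on either strand, occurred in 58.5% of the members' windows and 37.4% of all windows. The cell cycle homology letters, TTTGAA on either strand, occurred in 9.76% of the members' windows and 17.9% of all windows.

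Genes that start the helicase had 5 tested members of 6, none called. Gins4 and Gins1 encode subunits of GINS, which joins CDC45 and MCM2-7. Gins4 stood at 6.17, 14.2 and 12.4 FPKM in K10-spastin 1 to 3, against 12.9, 11.3 and 10.7 FPKM in controls 1 to 3. Gins1 stood at 4.74, 10.5 and 6.03 FPKM in K10-spastin 1 to 3, against 4.25, 3.92 and 6.05 FPKM in controls 1 to 3, with a change of 0.45 ± 0.29 (adjusted p = 0.336). The groups overlapped in both. Mcm10, which helps to switch the helicase on, stood at 0.537, 3.50 and 2.15 FPKM in K10-spastin 1 to 3, against 1.22, 1.09 and 1.19 FPKM in controls 1 to 3, and its controls differed by at most 1.11-fold. Cdc45 had a change of -0.04 ± 0.34 and Gins2 of -0.21 ± 0.26. Gins3 averaged 0.995 ± 0.295 FPKM in K10-spastin and 0.739 ± 0.385 FPKM in control (SD, n = 3 each) and was not tested. In GENCODE release M21, 67.3% of the exon bases of Gins2 overlap Gse1 on the opposite strand. Whether counting used strand is not stated in the labels, so reads of these genes may not be separable.

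Of the sliding clamp and its loader, all 6 genes were tested, none was called, and 5 of 6 changes were negative, between -0.22 and -0.03. Pcna, the clamp that holds polymerases on DNA, was the most abundant replication factor and stood at 36.3, 72.6 and 73.2 FPKM in K10-spastin 1 to 3, against 60.0, 68.0 and 74.3 FPKM in controls 1 to 3. K10-spastin 1 was the lowest library, and K10-spastin 2 and 3 lay within the range of the controls. Its change was -0.21 ± 0.27 (adjusted p = 0.64). A processed pseudogene, Pcna-ps2, matches 781 bases of Pcna at 99.2% identity and averaged 5.33 FPKM, so part of the Pcna signal may be counted there. Rfc1, the large subunit of the clamp loader, stood at 10.9, 16.1 and 16.1 FPKM in K10-spastin 1 to 3, against 16.97, 16.2 and 16.2 FPKM in controls 1 to 3. Every K10-spastin value of Rfc1 lay below every control, but K10-spastin 2 and 3 missed the lowest control by less than 0.1 FPKM, and the change of -0.20 ± 0.19 had an adjusted p of 0.495. The small subunits Rfc2, Rfc3, Rfc4 and Rfc5 had changes of -0.22, -0.22, -0.03 and 0.09. Rfc5 differed by 3.73-fold between K10-spastin 2 and 1 while its controls lay within 1.07-fold.

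Polymerase and fork genes had 8 tested members of 9, none called, with 5 positive and 3 negative changes. Uhrf1, which directs maintenance methylation of new DNA, had the largest SD among the K10-spastin libraries of all members, 1.07 on the log2 scale against 0.18 in control. It stood at 7.49, 36.05 and 19.4 FPKM in K10-spastin 1 to 3, against 17.1, 14.9 and 19.5 FPKM in controls 1 to 3. Rpa1, the large subunit of the single-strand binding protein, stood at 11.9, 21.1 and 20.8 FPKM in K10-spastin 1 to 3, against 20.2, 19.4 and 18.7 FPKM in controls 1 to 3, whereas its partner Rpa2 stood at 3.78, 16.8 and 8.36 FPKM in K10-spastin 1 to 3, against 9.37, 7.01 and 7.85 FPKM in controls 1 to 3. K10-spastin 2 exceeded K10-spastin 1 by 1.77-fold for Rpa1 and by 4.43-fold for Rpa2. The catalytic polymerase subunits Pola1, Pold1 and Pole had changes of -0.14 ± 0.31, -0.34 ± 0.42 and 0.10 ± 0.34, the primase Prim1 of 0.21 ± 0.21 and the ligase Lig1 of 0.09 ± 0.35. Fen1, the flap nuclease of lagging-strand synthesis, was listed at only 0.0514, 0.57 and 0.18 FPKM in K10-spastin 1 to 3, against 0.278, 0.139 and 0.0539 FPKM in controls 1 to 3. The antisense gene Gm10143 overlaps 78.8% of the Fen1 exon bases in GENCODE release M21. Whether that overlap bears on the low Fen1 values was not tested, and Fen1 is not interpreted further.

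Nucleotide supply genes, all 4 tested and none called, had the highest median change of the roles, 0.29. Tk1, which salvages thymidine, stood at 12.8, 44.9 and 26.4 FPKM in K10-spastin 1 to 3, against 18.7, 17.8 and 23.7 FPKM in controls 1 to 3. Rrm2, the small subunit of ribonucleotide reductase, stood at 15.3, 39.0 and 29.8 FPKM in K10-spastin 1 to 3, against 16.0, 20.1 and 20.3 FPKM in controls 1 to 3, with a change of 0.46 ± 0.32 (adjusted p = 0.364). In both genes K10-spastin 2 and 3 exceeded every control and K10-spastin 1 lay below every control. Its partner subunit Rrm1 had a change of 0.28 ± 0.36. Tyms, which makes thymidylate, was the exception with a negative change of -0.34 ± 0.43 and stood at 3.32, 13.0 and 7.82 FPKM in K10-spastin 1 to 3, against 6.64, 9.39 and 12.5 FPKM in controls 1 to 3.

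G1/S regulators, all 9 tested and none called, had 7 negative changes and a median of -0.49. Cyclin D3 was the dominant D cyclin, and Ccnd3 stood at 56.9, 162 and 132 FPKM in K10-spastin 1 to 3, against 168, 188 and 186 FPKM in controls 1 to 3. The groups did not overlap. The means were 117 ± 54.0 FPKM in K10-spastin and 180.4 ± 11.0 FPKM in control (SD, n = 3 each), with a change of -0.75 ± 0.35 and a 95% interval of -1.58 to 0.08 (adjusted p = 0.196). Its K10-spastin 2 value was 2.84 times that of K10-spastin 1, and the difference between the groups did not exceed this spread. Ccnd2 stood at 1.63, 7.86 and 2.77 FPKM in K10-spastin 1 to 3, against 5.50, 4.88 and 10.1 FPKM in controls 1 to 3, and Ccnd1 at 0.959, 2.21 and 1.48 FPKM in K10-spastin 1 to 3, against 2.35, 1.96 and 3.67 FPKM in controls 1 to 3. Both overlapped between the groups. Ccnd1 shares 23.4% of its exon bases with LTO1 on the opposite strand, so its value is uncertain.

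Ccnd3 made up 95.6% ± 1.38 of the summed D cyclin FPKM in K10-spastin and 95.04% ± 1.75 in control (SD, n = 3 each; exact two-sided permutation p = 0.6). Each D cyclin's share overlapped between the groups, although a p of this size does not show that the shares are alike. Cdk4, the kinase partner of D cyclins, was the most abundant member and stood at 103, 196 and 157 FPKM in K10-spastin 1 to 3, against 191, 166 and 169 FPKM in controls 1 to 3. It made up 91.6% ± 0.456 of the summed FPKM of Cdk2, Cdk4 and Cdk6 in K10-spastin and 90.4% ± 1.84 in control (SD, n = 3 each; exact two-sided permutation p = 0.4). Cdk4 shares 19.7% of its exon bases with Tspan31 on the opposite strand. Cdk6 stood at 2.49, 3.75 and 4.33 FPKM in K10-spastin 1 to 3, against 4.13, 5.60 and 6.27 FPKM in controls 1 to 3, with a change of -0.49 ± 0.24 (adjusted p = 0.203). Cdk2, the partner of cyclin E, stood at 6.67, 13.8 and 11.2 FPKM in K10-spastin 1 to 3, against 11.5, 13.7 and 14.51 FPKM in controls 1 to 3, and the groups overlapped.

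The E cyclins bind CDK2 at the G1/S boundary. Ccne1 stood at 4.60, 10.8 and 7.33 FPKM in K10-spastin 1 to 3, against 4.58, 8.30 and 7.12 FPKM in controls 1 to 3. Ccne2 stood at 1.31, 2.23 and 1.91 FPKM in K10-spastin 1 to 3, against 1.74, 1.50 and 1.10 FPKM in controls 1 to 3. Their changes were 0.13 ± 0.32 and 0.20 ± 0.22, with intervals of -0.62 to 0.88 and -0.31 to 0.71. Ccne1 made up 80.0% ± 2.59 of the summed E cyclin FPKM in K10-spastin and 81.3% ± 7.65 in control (SD, n = 3 each; exact two-sided permutation p = 0.8). Ccne2 shares 17.4% of its exon bases with Ints8 on the opposite strand, so its value and this share are uncertain. E2f1, the transcription factor that activates S-phase genes, stood at 0.399, 2.72 and 1.43 FPKM in K10-spastin 1 to 3, against 2.62, 2.19 and 2.55 FPKM in controls 1 to 3. Its change was -0.57 ± 0.35 (adjusted p = 0.309), and K10-spastin 2 lay above every control while K10-spastin 1 lay at the lowest level of the 6 libraries.

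**Figure D4:**
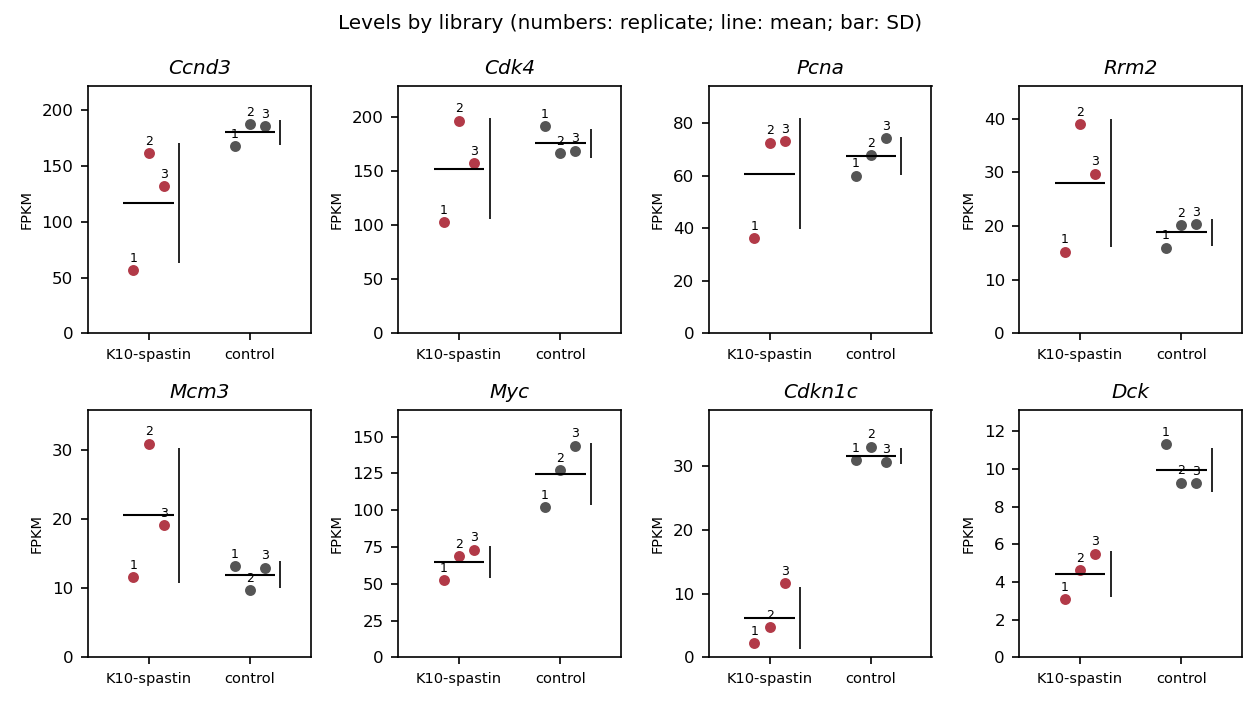
FPKM of 8 genes in each K10-spastin library (left of each panel) and control library (right), with replicate numbers, a line at the mean and a bar for the SD over 3 libraries. Ccnd3, Cdk4, Pcna, Rrm2 and Mcm3 spread widely over the K10-spastin libraries, and Myc, Cdkn1c and Dck lie below every control in each K10-spastin library.

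Of 84 further cell-cycle genes on 3 lists, 79 were tested and 3 fell, all lower in K10-spastin. Of all tested genes, 5.9% fell and 5.14% rose. The lists held 43 other replication genes, 29 other G1/S regulators and 12 genes of G2, mitosis and cycling cells. Cdkn1c encodes p57, an inhibitor of cyclin-dependent kinases, and stood at 2.26, 4.73 and 11.6 FPKM in K10-spastin 1 to 3, against 30.9, 33.0 and 30.6 FPKM in controls 1 to 3, with a change of -2.40 ± 0.44 (adjusted p = 0.0203). Myc, a transcription factor that promotes entry into the cell cycle, stood at 52.4, 68.8 and 73.2 FPKM in K10-spastin 1 to 3, against 102, 127 and 144 FPKM in controls 1 to 3, with a change of -0.93 ± 0.18 (adjusted p = 0.0248). Dck, a kinase that salvages deoxynucleosides, stood at 3.09, 4.62 and 5.50 FPKM in K10-spastin 1 to 3, against 11.3, 9.28 and 9.24 FPKM in controls 1 to 3, with a change of -1.04 ± 0.22 (adjusted p = 0.0307). In each of the 3 genes every K10-spastin library lay below every control. Cdkn1a, which encodes p21, was the most abundant gene of these lists and stood at 802, 514 and 535 FPKM in K10-spastin 1 to 3, against 483, 597 and 612 FPKM in controls 1 to 3, with a change of 0.11 ± 0.20 (adjusted p = 0.751). Pold2, a polymerase delta subunit, had a change of 0.31 ± 0.27 (adjusted p = 0.469). Of 17 other settings, Cdkn1c and Myc were called in 13 each and Dck in 11. None of the 3 was called without control 2, control 3 or K10-spastin 2 (adjusted p 0.0505 to 0.11), and without control 1 Myc alone was, at 0.0414.

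The 12 genes of G2, mitosis and cycling cells showed the same library order as the members with a wider range. All 12 were highest in K10-spastin 2, had the order 1, 3, 2 and none was called. Relative to the control mean their median was -0.55 in K10-spastin 1, 1.26 in K10-spastin 2 and 0.78 in K10-spastin 3 on the log2 scale. Cdc20, which activates the anaphase-promoting complex, stood at 57.3, 200.4 and 111 FPKM in K10-spastin 1 to 3, against 57.4, 53.4 and 53.5 FPKM in controls 1 to 3, with a change of 0.98 ± 0.40 (adjusted p = 0.144). Top2a, a topoisomerase of dividing cells, had a change of 0.14 ± 0.48 (adjusted p = 0.871). Mki67, the gene of the proliferation marker Ki-67, stood at 5.08, 20.2 and 11.98 FPKM in K10-spastin 1 to 3, against 6.53, 7.19 and 8.47 FPKM in controls 1 to 3. In Cdc20 and Mki67, K10-spastin 2 and 3 exceeded every control, and K10-spastin 1 did not. Other replication and G1/S genes, 67 tested, had medians of -0.58, 0.32 and 0.08 in K10-spastin 1 to 3.

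**Figure D5:**
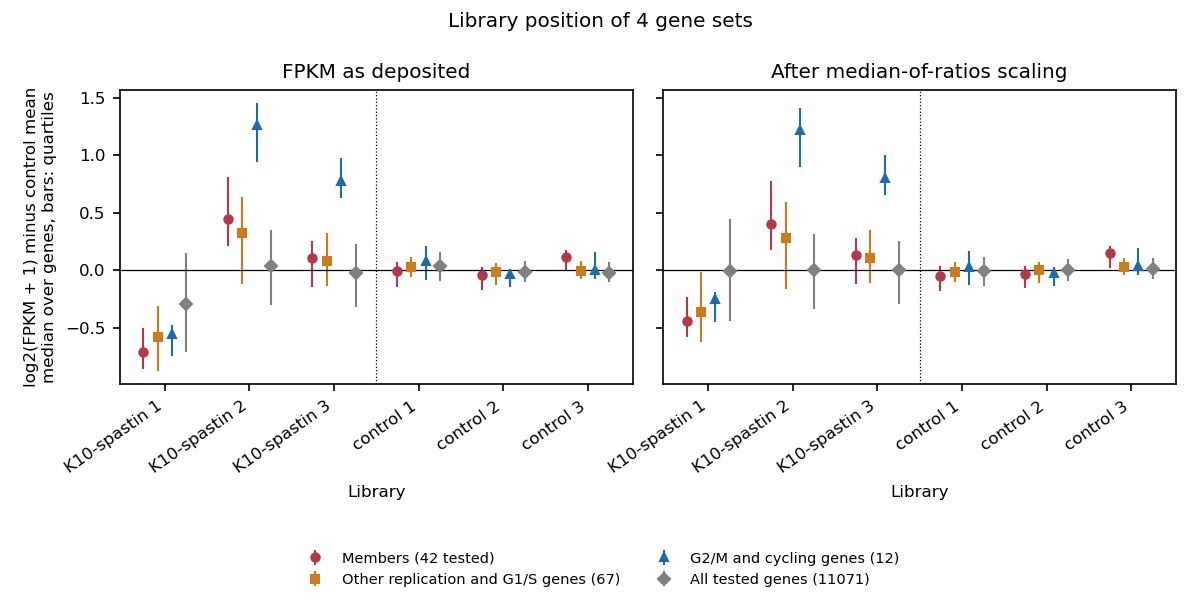
Median over genes of log2(FPKM + 1) minus the control mean in each library, with bars for quartiles, for the members, 67 other replication and G1/S genes, 12 genes of G2 and mitosis and all 11071 tested genes, as deposited (left) and after median-of-ratios scaling (right). In K10-spastin 2 the members lie at 0.44 and the G2 and mitosis genes at 1.26, and in K10-spastin 1 at -0.71 and -0.55, with all tested genes at 0.04 and -0.30.

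K10-spastin 1 stood apart in these same members, being the lowest of the 6 libraries in 37 of 42. Leaving it out therefore raises their changes through the choice itself, and p-values without it are description only. The counts were repeated without it on that footing. Then 1 of 42 members rose, Rrm2, with a change of 0.83 ± 0.17 (limma adjusted p = 0.0360), and none fell, against 6.24% of all tested genes in each direction. Mcm5 and Mcm3 had changes of 1.00 ± 0.24 and 0.98 ± 0.24 there (adjusted p = 0.0501 and 0.0521). The members' median change was 0.26, and 34 of 42 changes were positive, with 11 members at an unadjusted p under 0.05, against 33.6% of all tested genes. Of the 79 further cell-cycle genes, 17 rose and 5 fell without K10-spastin 1, and 10 of the 12 genes of G2, mitosis and cycling cells were among those that rose. Asf1b, a histone chaperone, had a change of 1.26 ± 0.18 (adjusted p = 0.0156), and Cdc20 of 1.43 ± 0.24 (adjusted p = 0.0233). Without control 1 as well, no member was called, against 5.73% of all tested genes higher and 5.65% lower, and 12 further genes rose. With limma's array weights, which give libraries that deviate more a lower weight, Mcm3, Mcm5 and Rrm2 rose, with changes of 0.82 ± 0.21, 0.84 ± 0.24 and 0.60 ± 0.16 (adjusted p = 0.0249, 0.0337 and 0.0292), against 13.9% of all tested genes that rose and 16.0% that fell. These weights are set from the same values, so the p-values with them are description only as well. Without K10-spastin 2 the members' median change was -0.29, beside -0.16 for all tested genes, and 7 of 42 changes were positive. No member was called there, against 3.25% of all tested genes higher and 3.11% lower. The sign of the median thus depended on which K10-spastin library was left out.

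Markers of other cells also differed between the libraries. The summed FPKM of 14 basal keratinocyte markers was 4053, 4955 and 2668 in K10-spastin 1 to 3, against 7466, 4397 and 7576 in controls 1 to 3. Of the 14, 3 fell, namely Krt15, Itgb1 and Dst, against 5.9% of all tested genes that fell. Among the K10-spastin libraries the basal sum was highest in K10-spastin 2, as most members were, and lowest in K10-spastin 3. Without Krt14, a choice made after its values were seen, the other 13 markers summed to 1322, 3422 and 2062 FPKM in K10-spastin 1 to 3, against 6165, 3484 and 5742 FPKM in controls 1 to 3, which is the members' order 1, 3, 2. Krt5 alone held 1072, 2670 and 1608 FPKM of those sums in K10-spastin 1 to 3, so their order is largely that of 1 gene. Taken singly, 4 of the 14 basal markers had that order and 10 did not, against 39.7% of all tested genes with it. The 8 melanocyte markers summed to 2.76, 25.8 and 3.38 FPKM in K10-spastin 1 to 3, against 4.68, 10.9 and 19.3 FPKM in controls 1 to 3. The 8 fibroblast markers summed to 0.791, 3.09 and 2.32 FPKM in K10-spastin, against 6.52, 22.7 and 42.6 FPKM in control. Of the 4 that were tested, 1 fell, Dcn. The suprabasal sum was lowest, and the melanocyte and immune sums highest, in K10-spastin 2. The 6 erythroid markers summed to 17.4, 6.34 and 3.80 FPKM in K10-spastin 1 to 3, against 7.66, 76.4 and 330.7 FPKM in controls 1 to 3. The part of these cells in the members' differences between libraries was not tested. Spast stood highest in K10-spastin 1, the lowest of the 6 libraries in 37 of 42 members. It stood lowest in K10-spastin 3, which lay between the other K10-spastin libraries in 40 of 42 members. Whether the level of Spast goes with that of the members was not tested.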

How the data were processed

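Fluorescent epidermal cells of 3 K10-spastin and 3 control samples were sequenced. The deposited table holds FPKM as the authors computed it, 1 column per library. The submitters' processing notes name 2 tools, CASAVA and TopHat2, with no version. Build, annotation, counter and strand setting: not given in the sources used here. Symbols matched 34490 of 35275 identifiers. The members and lists were chosen with earlier results of these data known. All 45 members could be named. Values in every library were given for the 2 most abundant members of each role and the families compared by shares, and, of the further cell-cycle lists, for called genes, with up to 4 more of highest mean named; other members given in full, Mki67 and Asf1b were chosen after their values were seen.

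Genes averaging 1 FPKM or more over the libraries were fitted with limma 3.58.1 (R 4.3.3: lmFit, eBayes with trend, two-sided, no covariate) on log2(FPKM + 1), adjusted over all 11071. The fit was tested on simulated data. Shares used exact permutation over samples. Depth was the commonest step of low values in 14953 genes with 1 transcript in GENCODE release M21, with 90.6% to 91.5% of low values, up to 20 fragments, whole within 0.05. FPKM are not counts, so no count test was run. In a 1 kb transcript 3 fragments were worth 0.134 to 0.187 FPKM, counting error only. Copies were found with BLAST 2.17.0 (at least 90% identity over 200 bases), and 11 members had a pseudogene copy and 16 overlapped another gene by at least 100 bases. Tables were handled in pandas 2.3.3 and numpy 2.4.6 under Python 3.11.15, and figures drawn in matplotlib 3.10.9. Alternatives covered pseudocounts, filters, scalings, variance models, array weights, the replicate block and libraries left out.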

Additional observations from a re-analysis of the deposited data

How the results depend on the processing

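Over 17 alternatives, the count of members that fell stayed at 0, and the count that rose stayed at 0 except for 3 with array weights and 0 to 1 with single libraries left out (1 without K10-spastin 1). Of 702 values of single members under these alternatives, 4 became calls, no called value was reversed, and 78 values without a call changed sign. The members' median change ran from -0.29 to 0.26 with single libraries left out, so its sign changed with the library left out. Its sign also changed with all 6 libraries kept. It was 0.05 with median-of-ratios scaling, 0.09 with quantile normalization, 0.096 with array weights and 0.01 with the 5 FPKM filter. In the main fit and the other fits of all 6 libraries it was -0.05 to -0.03. Positive changes numbered 23 with median-of-ratios scaling, 26 with quantile normalization and 28 with array weights, against 18 in the main fit. All genes higher and lower numbered 319 and 348 with no filter, 471 and 414 with a filter at 5 FPKM, and 1535 and 1771 with array weights. With single libraries left out, 113 to 691 were higher and 32 to 701 lower. The further cell-cycle genes that rose numbered 2 with median-of-ratios scaling, 1 with quantile normalization, 16 with array weights, 12 without control 1 and K10-spastin 1 together and 0 to 17 with single libraries left out. Those that fell numbered 1 with no filter, 9 with array weights and 0 to 5 with single libraries left out. The fit with no filter tested 20977 genes. The main fit had 569 genes higher and 653 lower. Without K10-spastin 1 they numbered 691 and 691, and without K10-spastin 3 665 and 701. Both counts were below the main fit without any other single library. The cause of these differences was not tested. With the replicate number as a block, 274 genes were higher and 218 lower, no member was called, and Myc and Cdkn1c remained called. Same-numbered libraries deviated with correlations of -0.128, -0.378 and -0.0471, and differently numbered ones with -0.0865 to 0.273. With so few libraries these values cannot settle whether the numbers pair the samples, and the labels do not say. The low levels of Cdc6, Gins3 and Fen1 limit what can be said of them.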
